A study of Mus musculus with 10 samples.

Results

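The genes described here encode the structural proteins of the cornified envelope that lie side by side in the epidermal differentiation complex. They were chosen by name and position in the deposited tables: protein-coding genes of chromosome 3 named *Lce* or *Sprr* with a number, together with *Lor*, *Ivl*, *Flg*, *Flg2*, *Hrnr*, *Rptn*, *Tchh*, *Tchhl1*, *Crct1*, *Crnn*, *Smcp*, and *Kprp*, whereas the S100 genes of the same region were left out. This gave 48 of the 25814 genes of the tables, located between positions 92080271 and 93471980 of chromosome 3 (GRCm38). By family, they comprise 11 *Sprr2* genes, 4 other *Sprr* genes, 15 *Lce1* and *Lce6a* genes, 6 *Lce3* genes, 7 genes of the S100-fused type (*Flg*, *Flg2*, *Hrnr*, *Rptn*, *Tchh*, *Tchhl1*, and *Crnn*), and 5 single genes (*Lor*, *Ivl*, *Crct1*, *Kprp*, and *Smcp*).

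RNA was sequenced from 5 groups of 2 libraries each, all from mouse cells cultured *ex vivo*. The first group was primary keratinocytes from the tails of adult C57/B6 mice kept in serum-free medium with 0.06 mM Ca++ (keratinocytes alone), and the second was such keratinocytes after culture together with CD8+ T cells, from which the T cells had been washed off (co-cultured keratinocytes). The T cells were splenic cells isolated with CD8 microbeads and activated by αCD3/CD28 for 1 d. They were collected at that point (activated T cells), after 1 further day in keratinocyte medium (T cells in keratinocyte medium), or after 1 further day with keratinocytes (co-cultured T cells). For the co-culture, the titles of the T-cell samples state 1 d and the design text states 1 h. According to the study's text, co-cultures and the T cells labelled as in keratinocyte medium both held a share of Ca++-containing X-VIVO medium, and whether keratinocytes alone received it is not given in the sources used here. By the design text the libraries come from 2 parallel experiments, and how many mice or cultures stand behind them is not stated, so that p-values measure the spread between these libraries.

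The cornified envelope is the protein shell that replaces the plasma membrane of a keratinocyte when it becomes a dead corneocyte at the skin surface. Its precursors, among them loricrin, involucrin, and the small proline-rich (SPRR) and late cornified envelope (LCE) proteins, are cross-linked by transglutaminases, while filaggrin and its relatives pack the keratin filaments. The genes are switched on in the suprabasal layers, in a program that Ca++ promotes in culture, and SPRR and LCE3 genes are known for induction in wounded and psoriatic skin.

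Between 12864931 and 18019609 reads on exons were counted per library, and 3 reads, the upper limit that a count of 0 allows, correspond to between 0.158 and 0.212 RPKM for a transcript of 1000 bases. This covers counting error only. The keratinocyte libraries held the basal keratins at high levels, with *Krt14* between 7240 and 11836 RPKM. All 4 also held T-cell transcripts, and the 8 T-cell genes looked up summed to 110 and 434 RPKM in keratinocytes alone and to 142 and 778 RPKM in co-cultured keratinocytes. These were higher in replicate 2 of both groups. *Cd8a* stayed between 0.118 and 1.16 RPKM there, against 110 to 334 RPKM in the T-cell libraries. *Cd4* reached 11.4 to 84.5 RPKM in the keratinocyte libraries, and 16.8 to 102 RPKM in the T-cell libraries. Long transcripts were less covered in replicate 2 of each group that expressed these genes. For genes with over 4000 exonic bases the median log2 ratio of replicate 2 to replicate 1 was -0.27 in keratinocytes alone, -0.60 in co-cultured keratinocytes, and -0.61 in co-cultured T cells. For genes under 1000 bases it was 0.34, 0.35, and 0.23.

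Many of these genes are near-copies of each other, which limits what a read of 59 bases can tell. To show this, the first 59 bases of the coding sequence (GENCODE vM21) are given for the 3 *Sprr2* genes that share most sequence, with *Sprr2h* for contrast, and with capitals where a base differs from *Sprr2a2*.
Sprr2a2: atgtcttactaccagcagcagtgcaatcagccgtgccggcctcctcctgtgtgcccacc
Sprr2a1: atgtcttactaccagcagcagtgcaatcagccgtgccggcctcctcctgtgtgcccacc
Sprr2a3: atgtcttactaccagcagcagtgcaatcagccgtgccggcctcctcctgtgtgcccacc
Sprr2h: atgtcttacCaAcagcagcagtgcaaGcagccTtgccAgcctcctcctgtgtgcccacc
Over this stretch *Sprr2a1*, *Sprr2a2*, and *Sprr2a3* did not differ, whereas *Sprr2h* differed from *Sprr2a2* at 5 bases. The whole coding sequences of *Sprr2a1* and *Sprr2a2* were identical, and each *Lce3* gene was between 97.3% and 99.3% identical to its nearest relative.

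The counts followed this similarity. Of the distinct windows of 59 bases in the transcripts of *Sprr2a1* and *Sprr2a2*, 95.9% and 95.8% were also found in another gene, and of their exon reads in the 4 keratinocyte libraries 0.545% and 0.00887% were mapped uniquely. The annotated spans of these 2 genes also overlap, and their values are best read as 1 sum. *Sprr2a3* shared 56.1% of its windows and had 66.5% unique reads. The *Lce3c*, *Lce3d*, *Lce3e*, and *Lce3f* genes shared between 32.8% and 47.2% of their windows, with unique reads between 60.0% and 71.2%. *Sprr1a*, *Sprr1b*, *Sprr2h*, *Crct1*, *Lor*, and the S100-fused type genes with reads shared no window, and nearly all of their reads were unique.

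**Figure D1:**
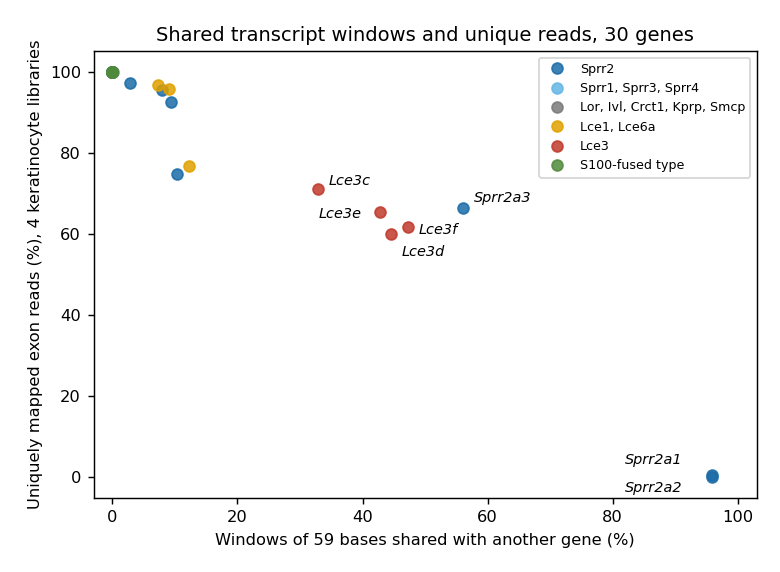
Percent of 59-base transcript windows shared with another gene (x axis) against percent of exon reads mapped uniquely in the 4 keratinocyte libraries (y axis), 1 point per gene, for the 30 genes with at least 50 reads in these libraries. *Sprr2a1* and *Sprr2a2* lie near 0% unique reads, *Sprr2a3* and 4 *Lce3* genes between 60.0% and 71.2%, and most other genes near 100%.

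Promoters of 2 *Sprr* and 2 *Lce3* genes are given here because the letters of both families differ, as windows of 300 bases (RefSeq, GRCm38.p6) from 250 bases before to 50 bases after the start. Capitals mark TGANTCA, the AP-1 motif with any base allowed at N, and TATAAA, 1 spelling of the TATA box. *Sprr1a* (minus strand, chr3:92485832-92486131) and *Sprr2h* (plus strand, chr3:92385435-92385734) stand for the *Sprr* genes, and *Lce3c* (plus strand, chr3:92944236-92944535) and *Lce3f* (plus strand, chr3:92991967-92992266) for the *Lce3* genes.
Sprr1a: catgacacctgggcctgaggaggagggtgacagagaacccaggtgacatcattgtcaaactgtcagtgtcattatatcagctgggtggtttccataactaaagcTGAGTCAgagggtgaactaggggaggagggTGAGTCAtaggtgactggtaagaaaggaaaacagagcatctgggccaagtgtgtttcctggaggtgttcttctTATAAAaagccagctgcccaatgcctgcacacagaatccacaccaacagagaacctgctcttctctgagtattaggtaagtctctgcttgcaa
Sprr2h: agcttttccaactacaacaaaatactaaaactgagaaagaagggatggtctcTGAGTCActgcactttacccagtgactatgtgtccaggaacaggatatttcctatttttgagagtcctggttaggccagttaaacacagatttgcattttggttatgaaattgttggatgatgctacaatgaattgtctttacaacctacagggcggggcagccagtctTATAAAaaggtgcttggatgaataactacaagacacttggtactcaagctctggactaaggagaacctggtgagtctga
Lce3c: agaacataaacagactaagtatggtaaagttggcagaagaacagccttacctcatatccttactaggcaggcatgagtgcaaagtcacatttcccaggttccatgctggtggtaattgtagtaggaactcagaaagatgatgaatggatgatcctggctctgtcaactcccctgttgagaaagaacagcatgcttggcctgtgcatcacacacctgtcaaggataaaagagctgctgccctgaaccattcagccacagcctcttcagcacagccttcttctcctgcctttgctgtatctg
Lce3f: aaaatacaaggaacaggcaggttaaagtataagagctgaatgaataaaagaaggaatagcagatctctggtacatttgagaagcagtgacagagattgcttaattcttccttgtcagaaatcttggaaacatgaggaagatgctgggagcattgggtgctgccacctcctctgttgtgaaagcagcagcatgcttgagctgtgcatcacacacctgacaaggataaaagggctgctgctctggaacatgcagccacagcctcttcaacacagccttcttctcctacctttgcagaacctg
In *Sprr1a* the AP-1 motif begins at positions -146 and -116 and the TATA box at -43, and in *Sprr2h* at -198 and -29. Neither string of letters is in the windows of *Lce3c* and *Lce3f*, and other spellings of the TATA box were not searched for. RefSeq windows were found for 44 of the 48 genes and not for *Sprr2j-ps*, *Lce1f*, *Crct1*, and *Kprp*. On either strand, TGANTCA occurred in 16 of the 44 windows (36.4%), against 7.81% of all 32851 promoter windows of this length. It was present in 7 of 10 *Sprr2* windows, 5 of 7 windows of the S100-fused type, 2 of 4 windows of other *Sprr* genes, and in the windows of *Lor* and *Ivl*, and it was absent from the 14 *Lce1* and *Lce6a* and the 6 *Lce3* windows. The base at N was G or C in the matches of *Sprr2*, *Sprr1a*, *Lor*, and *Ivl*. In those of the S100-fused type and *Sprr1b* it was A or T. TATAAA occurred in 20 of 44 windows (45.5%), against 13.6% of all windows, and in 7 of 10 *Sprr2* and 1 of 6 *Lce3* windows. The *Lce3* match is in *Lce3e*, on the other strand at -243. The STAT motif TTCNNNGAA was in 4 of 44 windows (9.09%), against 8.3% of all. These matches of letters are a description, and binding was not measured in these libraries.

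In keratinocytes alone, the SPRR genes dominated. *Sprr1a*, an SPRR protein precursor known as an early marker of squamous differentiation, was the most abundant, with 2910.3 and 2194 RPKM. *Sprr1b*, its nearest relative with 78.4% coding identity, had 784 and 895 RPKM. *Sprr2a2*, which carries nearly all reads of the *Sprr2a1* and *Sprr2a2* pair, had 515 and 1121 RPKM. *Crct1*, a cysteine-rich gene next to the *Lce* genes, followed with 556 and 364 RPKM, and *Sprr2h* with 401 and 271 RPKM. In both libraries these 5 genes lay above all others, of which the next were *Sprr2d* (68.5 and 22.6 RPKM), *Sprr2j-ps* (45.9 and 30.8 RPKM, named a pseudogene but listed as protein-coding), and *Sprr2a3* (30.8 and 36.7 RPKM). *Sprr1a* was above all other genes in both libraries, while *Sprr1b* overlapped *Sprr2a2*, *Sprr2a2* overlapped *Crct1*, and *Crct1* overlapped *Sprr2h*.

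The classical envelope and filaggrin genes were low in these cultures. *Ivl*, encoding involucrin, an early scaffold of the envelope, had 15.4 and 21.1 RPKM. *Lor*, encoding loricrin, the main envelope protein of the skin surface, had 5.77 and 3.60 RPKM, and *Flg*, encoding profilaggrin, had 0.390 and 0.656 RPKM. *Flg2* had no read in any of the 10 libraries, and *Sprr4* and *Smcp*, a gene of the sperm mitochondrial capsule, had at most 2 reads per library. Among the *Lce3* genes, *Lce3c* (28.6 and 22.8 RPKM) and *Lce3f* (20.5 and 6.25 RPKM) were the highest. The 15 *Lce1* and *Lce6a* genes summed to 18.7 and 6.73 RPKM. Altogether the 48 genes summed to 5543 and 5108 RPKM and took 0.602% and 0.719% of the exon reads, and 46 and 39 of them had a read.

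**Figure D2:**
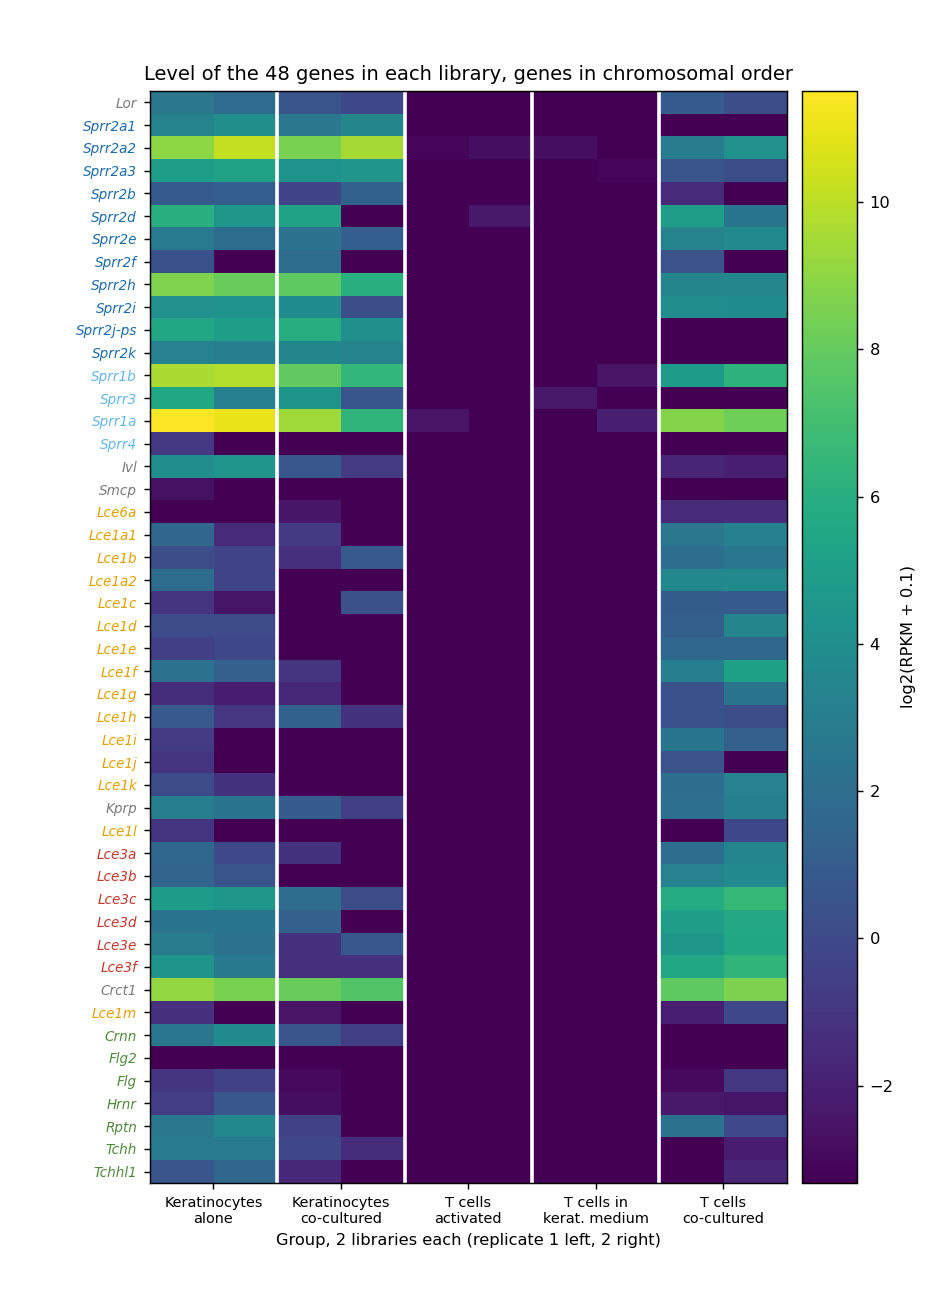
Level of each of the 48 genes, in chromosomal order (rows, coloured by family), in the 10 libraries (columns, 2 per group), as log2(RPKM + 0.1). The keratinocyte groups and the co-cultured T cells carry signal, from summed levels of 991 to 5543 RPKM, and the activated T cells and T cells in keratinocyte medium almost none.

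The first comparison asked what co-culture with CD8+ T cells does to these genes in keratinocytes. The summed level of the 48 genes was 5543 and 5108 RPKM in keratinocytes alone and 1976 and 1212 RPKM in co-cultured keratinocytes, or 0.299 of the former on average. The groups did not overlap, but no single gene passed the test. *Sprr1a* had 685 and 78.5 RPKM after co-culture and *Sprr1b* 236 and 91.4 RPKM, each below both libraries of keratinocytes alone. *Ivl* had 1.51 and 0.505 RPKM, *Lor* 1.37 and 0.818 RPKM, and *Crct1* 262 and 176 RPKM, again without overlap. The fitted log2 fold changes were -2.72 ± 1.01 (SE) for *Sprr1a*, -2.32 ± 0.52 for *Sprr1b*, -4.15 ± 0.62 for *Ivl*, -2.03 ± 0.56 for *Lor*, and -1.004 ± 0.365 for *Crct1*. Their adjusted p-values (edgeR) lay between 0.478 and 0.658.

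By family, the ratio of the mean sums, co-cultured to alone, lay between 0.0669 for the S100-fused type and 0.61 for *Sprr2*, and differences between families were not tested. For the *Lce3* genes, whose products are barrier proteins of repair, the sum was 68.0 and 41.1 RPKM in keratinocytes alone and 6.999 and 2.76 RPKM after co-culture, and *Lce3f* had 0.323 and 0.298 RPKM, or 3 reads in each library (log2 fold change -5.29 ± 0.92, adjusted p = 0.528 in edgeR). *Lce3b* had no read after co-culture, and was at least 6.18-fold lower against a floor of 3 reads per library. The S100-fused type genes summed to 20.9 and 38.3 RPKM alone and to 3.09 and 0.866 RPKM after co-culture, and their 6 tested members had log2 fold changes between -5.44 and -3.29. *Tchh*, encoding trichohyalin, an envelope and hair sheath protein, had 7.01 and 6.71 RPKM alone and 0.802 and 0.281 RPKM after co-culture (-3.62 ± 0.56, adjusted p = 0.518 in edgeR). *Rptn*, encoding repetin, had 6.10 and 12.3 RPKM alone and 0.619 and 0 RPKM after co-culture. *Crnn*, encoding cornulin, had 5.45 and 14.2 RPKM alone and 1.38 and 0.585 RPKM after co-culture. These genes are long, with 1865 exonic bases or more, and the poorer coverage of long transcripts in replicate 2 of the co-cultured keratinocytes moves with them. When the length trend was removed, *Tchh* moved from -3.62 to -3.38 and *Crnn* from -3.29 to -3.51.

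The *Sprr2* family summed to 1108 and 1531 RPKM in keratinocytes alone and to 754 and 856 RPKM after co-culture. *Sprr2a2* had 372 and 724 RPKM after co-culture and overlapped keratinocytes alone, with a log2 fold change of -0.50 ± 0.62. *Sprr2k* was at 9.43 and 7.93 RPKM alone and at 11.1 and 9.80 RPKM after co-culture, above both libraries of keratinocytes alone, and *Sprr2j-ps* was at 60.7 and 17.5 RPKM, overlapping its level without T cells. *Sprr2h* had 224 and 66.8 RPKM, below both libraries of keratinocytes alone (-1.17 ± 0.60). *Sprr1a* took 52.5% and 43.0% of the summed RPKM of the 48 genes in keratinocytes alone, whereas in replicate 2 of the co-cultured keratinocytes *Sprr2a2* took 59.7%.

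Over all genes, edgeR called 0 of 12515 at an adjusted p under 0.05 in either direction (0.0% higher and 0.0% lower), and accordingly 0 of the 33 genes described here that passed the filter on low counts. At an unadjusted p under 0.05, 17 of these 33 genes were lower and 0 higher, against 4.12% lower among all genes tested. In 22 of 33 both co-cultured libraries lay below both libraries of keratinocytes alone, against 24.3% of all genes, and in 1 gene, *Sprr2k*, they lay above, against 19.8% of all. The filter acts on these counts, since 13 of the 33 reached 10 reads in both libraries only in keratinocytes alone. For the 17 genes with at least 10 reads in all 4 libraries, 15 of the fitted log2 fold changes were below 0, 8 had an unadjusted p under 0.05, and the median was -1.18, beside 0.02 over all genes tested. The median over the 33 was -2.19, or -2.03 with genes without reads set to their bound. On log2(RPKM + 1), limma called 0 of them. DESeq2 called 8 of the 33 lower (*Sprr1b*, *Ivl*, *Lce3c*, *Lce3f*, *Crnn*, *Flg*, *Hrnr*, and *Tchh*), against 0.783% of all genes, and without replicate 1 of the co-cultured keratinocytes edgeR called 16 of 38 lower, against 8.06% of all genes. Replicate 2 of this group was the lower library for *Sprr1a*, *Sprr1b*, *Ivl*, *Lor*, *Crct1*, and *Tchh*. In bulk RNA, fewer differentiating cells and less RNA per cell cannot be told apart.

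**Figure D3:**
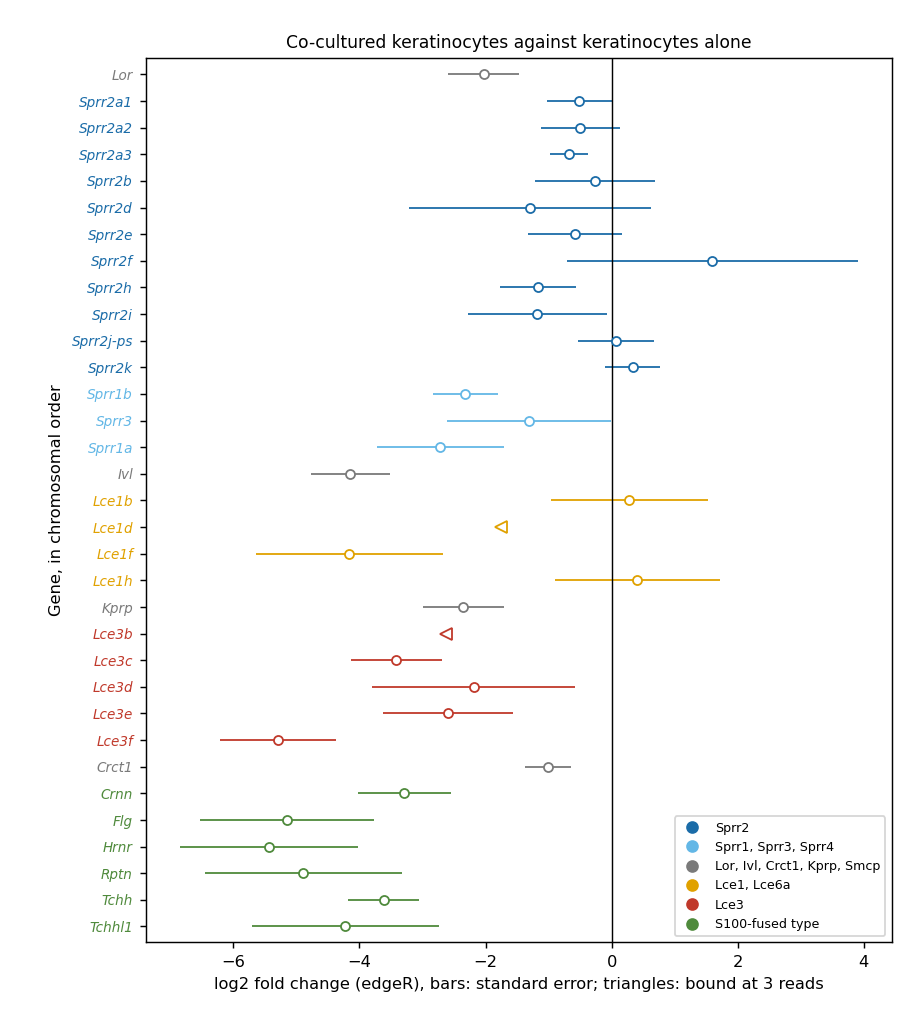
Log2 fold change (x axis, edgeR, bars: standard error) of co-cultured keratinocytes against keratinocytes alone for the 33 genes tested, in chromosomal order, coloured by family. Triangles are bounds for genes without reads after co-culture, and open symbols mark that 0 genes passed an adjusted p of 0.05. Of the estimates, 28 lie left of 0, down to -5.44 for *Hrnr*, and 5 lie right of it, up to 1.597 ± 2.31 for *Sprr2f*, which had 14 and 0 reads alone and 34 and 0 reads after co-culture.

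In T cells that had not met keratinocytes these genes were at the limit of detection. The 48 genes together had 2 and 3 reads in the activated T cells and 4 and 4 reads in the T cells in keratinocyte medium. In the co-cultured T cells they had 12001 and 13707 reads, or 0.0857% and 0.107% of the exon reads, and 37 of the 48 genes had a read in each library. *Sprr1a* had 429 and 306 RPKM, *Crct1* 228 and 380 RPKM, *Lce3c* 55.5 and 94.98 RPKM, *Lce3f* 46.9 and 82.0 RPKM, and *Sprr1b* 27.0 and 75.3 RPKM. *Sprr1a* was the highest of the 48 genes in replicate 1 and *Crct1* in replicate 2.

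Against T cells in keratinocyte medium, *Crct1* was at least 1310-fold higher, *Lce3c* at least 232-fold, *Lce3f* at least 214-fold, and *Kprp*, encoding a keratinocyte proline-rich protein, at least 92.3-fold, each against a floor of 3 reads per library. For *Sprr1a*, with 2 reads in the T cells in keratinocyte medium, the ratio of summed reads was 4870-fold (95% counting interval 1350 to 40200). Called higher by edgeR were 9 of the 30 genes tested (*Sprr1a*, *Sprr1b*, *Sprr2a2*, *Crct1*, *Kprp*, *Lce3c*, *Lce3d*, *Lce3e*, and *Lce3f*), against 0.261% of all genes. Their adjusted p-values ranged from 0.00234 to 0.0460. Without either replicate of the T cells in keratinocyte medium, 5 and 4 genes passed the threshold, and limma on log2(RPKM + 1) called 25. Against activated T cells, edgeR called 23 of the 30 higher, against 4.59% of all genes. All 30 passed the filter through the co-cultured T cells alone, so that these counts describe and do not support a common direction. Between T cells in keratinocyte medium and activated T cells no fold is given, because both groups lay at or under the floor.

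Other keratinocyte transcripts were also found in the co-cultured T cells, at different proportions. *Krt14* had 61.6 and 16.8 RPKM and *Krt5* 5.74 and 2.38 RPKM. The 9 basal keratinocyte genes summed to 76.9 and 23.6 RPKM, which is 0.353% of their mean in co-cultured keratinocytes, and the 4 stress keratins reached 1.25% of theirs. In T cells without keratinocytes the basal list summed to between 3.82 and 8.99 RPKM, with *Itga6* as its highest gene. This was not subtracted from the values given here. The 48 envelope genes reached 69.7% of their mean in co-cultured keratinocytes. Expressed per unit of the basal sum within each library, the envelope genes stood at 0.498 and 0.428 in keratinocytes alone, at 0.155 and 0.0771 in co-cultured keratinocytes, and at 12.9 and 52.3 in co-cultured T cells. The suprabasal list summed to 36.4% of its level in co-cultured keratinocytes. Of it, *Krt1* and *Krt10*, the keratins of suprabasal cells, were at or below 1.06 RPKM in the co-cultured T cells. In co-cultured keratinocytes they were low too, with 0.509 and 0.840 RPKM for *Krt1* and 0.747 and 0 RPKM for *Krt10*. *Krt10* lay between 0 and 1.21 RPKM in T cells without keratinocytes. *Krtdap* and *Sbsn*, both encoding secreted suprabasal proteins, went in opposite directions. *Krtdap* had 20.7 and 103.5 RPKM in the co-cultured T cells, above its 10.4 and 14.4 RPKM in co-cultured keratinocytes. *Sbsn* had 58.2 and 62.3 RPKM in the co-cultured T cells, below its 439 and 210 RPKM in co-cultured keratinocytes. Which cells in the T-cell fraction carried these transcripts was not tested.

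**Figure D4:**
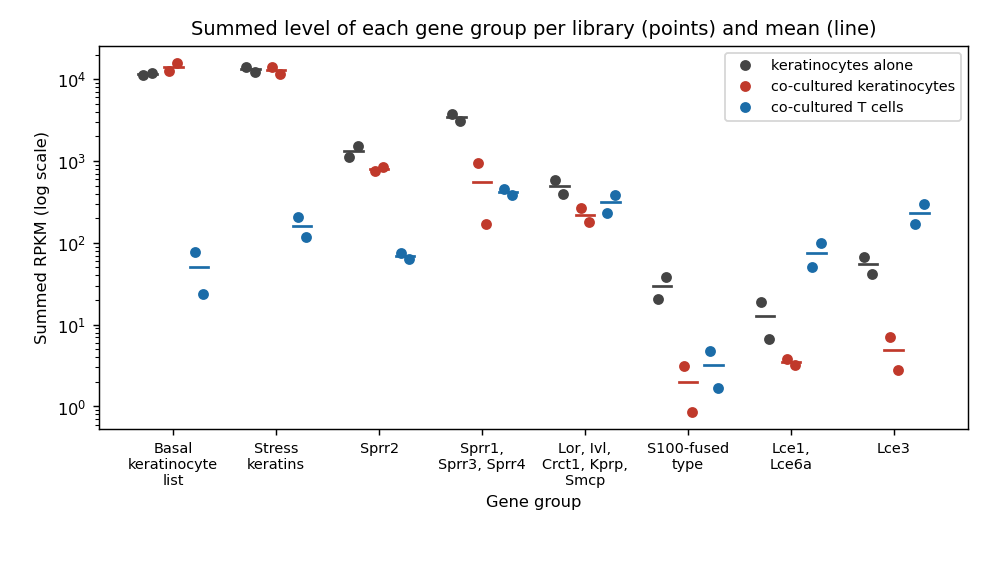
Summed RPKM per library (points, log scale) and mean of the 2 libraries (line) of 8 gene groups in keratinocytes alone, co-cultured keratinocytes, and co-cultured T cells. The basal and stress keratin lists stand at 0.353% and 1.25% of their co-cultured keratinocyte mean in the T cells, whereas the *Lce1* and *Lce3* groups are highest there, at 170 and 296 RPKM for *Lce3*.

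Both cell fractions of the co-culture were then compared. Of the 6 *Lce3* genes, 5 were called higher in the T-cell fraction, against 6.73% of all genes. None of the 6 had 10 reads in both co-cultured keratinocyte libraries, so that this count depends on the filter. The sum of the family was 6.999 and 2.76 RPKM in co-cultured keratinocytes and 170 and 296 RPKM in co-cultured T cells. *Lce3f* rose from 0.323 and 0.298 RPKM to 46.9 and 82.0 RPKM, with a log2 fold change of 7.76 ± 0.95 (adjusted p = 0.00244 in edgeR). *Lce3c* had 3.71 and 0.962 RPKM in co-cultured keratinocytes, and its log2 fold change was 5.16 ± 0.77 (adjusted p = 0.00474 in edgeR). *Lce3d* (2.28 and 0 RPKM against 31.6 and 48.8 RPKM) and *Lce3e* (0.325 and 1.498 RPKM against 22.8 and 46.7 RPKM) also passed the threshold, and *Lce3b*, without reads in the keratinocytes, was at least 34.1-fold higher. *Lce3a* had 3 reads in the keratinocyte libraries and 33 and 79 in the T-cell libraries, with an adjusted p of 0.0707 in edgeR. With uniquely mapped reads, *Lce3c* was at 5.15 and *Lce3f* at 7.25. The 6 genes are near-copies of each other and are not independent witnesses.

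The *Lce1* genes, which encode envelope proteins of normal late differentiation, were called higher in 5 of 11 members tested, against 6.73% of all genes. None of the 11 had 10 reads in both co-cultured keratinocyte libraries. Their sum with *Lce6a* was 3.83 and 3.20 RPKM in co-cultured keratinocytes and 50.3 and 98.3 RPKM in co-cultured T cells. *Lce1f* had 0.361 and 0 RPKM against 8.12 and 35.4 RPKM (log2 fold change 7.07 ± 1.52, adjusted p = 0.0182 in edgeR). *Lce1a2* had no read in the keratinocytes and 11.8 and 12.8 RPKM in the T-cell fraction, at least 46.6-fold higher. *Lce1d*, *Lce1e*, and *Lce1k*, at least 22.8-fold, 11.5-fold, and 23.3-fold higher, passed as well, and the other 6 tested members of this family did not. Both *Lce* families were also higher in the T-cell fraction than in keratinocytes alone, by 4.28-fold for the *Lce3* sum and 5.84-fold for the sum of *Lce1* and *Lce6a*, a difference that was not tested.

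Of the 11 *Sprr2* genes, 6 were called lower in the T-cell fraction, against 17.0% of all genes, and 0 higher, against 6.73% of all. The 6 count *Sprr2a1* and *Sprr2a2* separately. They also depend on the filter, which *Sprr2a1*, *Sprr2j-ps*, and *Sprr2k* passed only through the keratinocyte libraries. The family summed to 754 and 856 RPKM in co-cultured keratinocytes and to 75.8 and 64.1 RPKM in the T-cell fraction. *Sprr2a2* fell to 7.49 and 17.8 RPKM (log2 fold change -5.34 ± 0.79, adjusted p = 0.00247 in edgeR), *Sprr2a3* from 19.01 and 21.2 RPKM to 1.39 and 1.10 RPKM, and *Sprr2h* from 224 and 66.8 RPKM to 10.5 and 11.5 RPKM (-3.60 ± 0.59, adjusted p = 0.00667 in edgeR). *Sprr2k* and *Sprr2j-ps* had no read in the T-cell fraction and were at least 32.5-fold and at least 130-fold lower, against the floor of 3 reads per library. *Sprr2a1* had none either, but its reads cannot be told from those of *Sprr2a2*. Within the same family, *Sprr2e* (4.88 and 2.06 RPKM against 9.95 and 13.4 RPKM) and *Sprr2i* (14.9 and 1.08 RPKM against 15.1 and 15.0 RPKM) did not pass the test. *Sprr2e* and *Sprr2i* share 96.9% of their coding sequence. *Sprr2d*, with 36.5 and 0 RPKM in the keratinocytes and 29.9 and 5.29 RPKM in the T-cell fraction, had a log2 fold change of 0.01 ± 1.67.

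Outside these families, *Sprr3*, a SPRR gene of internal squamous epithelia, and *Crnn* had no read in the T-cell fraction and were at least 65.6-fold and 8.94-fold lower than in co-cultured keratinocytes. *Sprr1a*, *Crct1*, and *Lor* did not pass the test between both fractions, with log2 fold changes of 0.07 ± 0.78, 0.60 ± 0.44, and 0.51 ± 0.79. *Kprp* was at 1.90 and 0.600 RPKM in the keratinocytes and at 4.09 and 8.36 RPKM in the T-cell fraction (2.48 ± 0.75, adjusted p = 0.0548 in edgeR), and *Ivl* had 6 and 4 reads in the T-cell fraction (-2.39 ± 0.71, adjusted p = 0.0513 in edgeR). *Rptn*, with 4.70 and 0.852 RPKM, and *Tchh*, with 0 and 0.121 RPKM, did not pass the test.

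In total, 10 of 41 tested genes were called higher in the T-cell fraction, against 6.73% of all 13394 genes, and 8 were called lower, against 17.0% of all. Of the 41 genes, 20 had 10 reads in both libraries only in the T-cell fraction and 7 only in the keratinocytes, so that these counts depend on the filter. Among the 10 genes with at least 10 reads in all 4 libraries, 3 were called lower (*Sprr2a2*, *Sprr2a3*, and *Sprr2h*) and 0 higher. The calls of *Lce3d*, *Lce3e*, *Lce3b*, *Lce1d*, *Lce1e*, *Lce1f*, *Lce1k*, and *Lce1a2* were lost without replicate 2 of the co-cultured T cells, leaving 2 genes, *Lce3c* and *Lce3f*, past the threshold, and without replicate 1 of this group 5 genes were called lower (*Sprr2a1*, *Sprr2a2*, *Sprr2a3*, *Sprr2j-ps*, and *Sprr2k*).

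**Figure D5:**
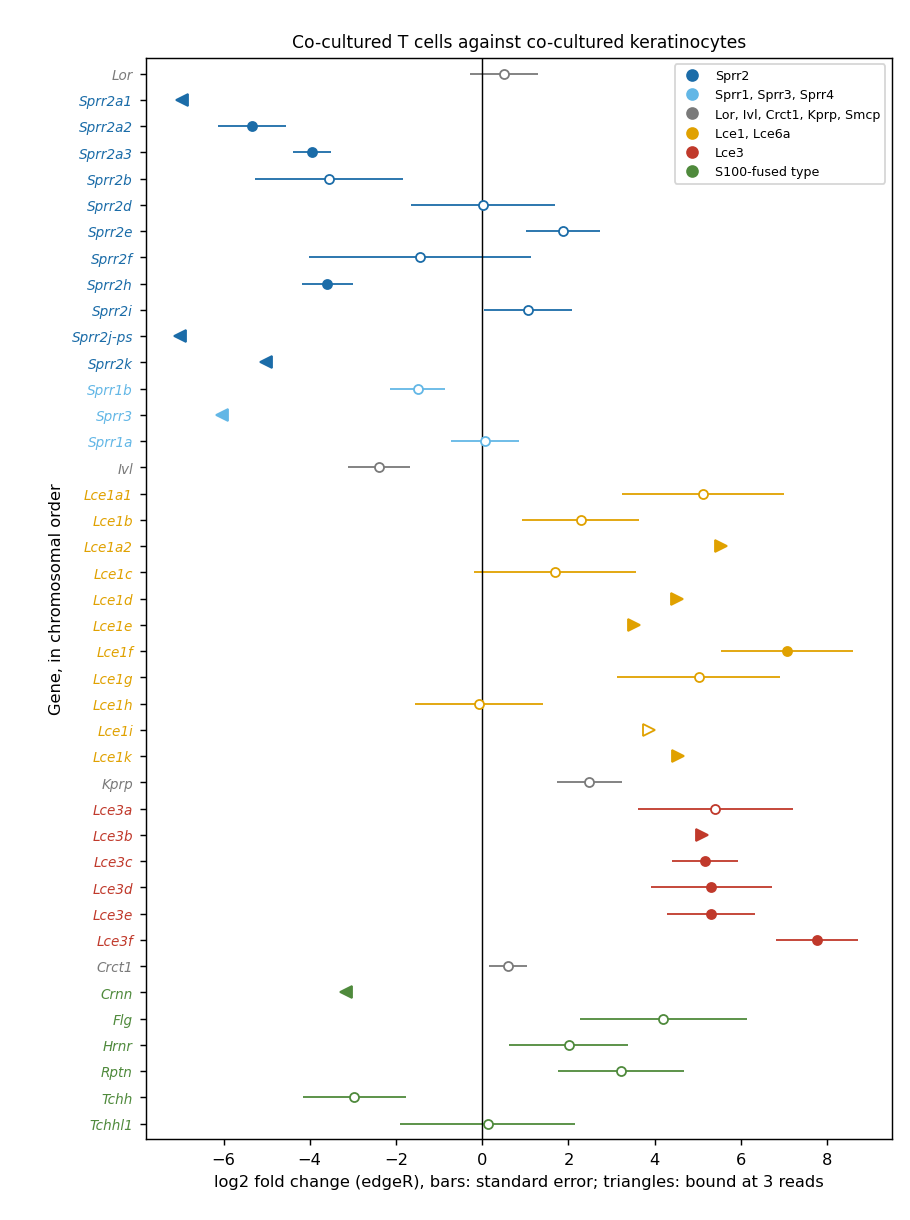
Log2 fold change (x axis, edgeR, bars: standard error) of co-cultured T cells against co-cultured keratinocytes for the 41 genes tested, in chromosomal order, coloured by family. Filled symbols passed an adjusted p of 0.05, and triangles are bounds against 3 reads per library. The *Lce1* and *Lce3* symbols that are filled lie to the right, and the filled *Sprr2*, *Sprr3*, and *Crnn* symbols to the left.

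An interaction term over 8 libraries set the change upon co-culture in the keratinocyte libraries against that in the T-cell libraries. It passed the threshold below 0, that is lower in keratinocytes than in T cells, for 11 of 41 genes (*Lor*, *Sprr1a*, *Sprr1b*, *Sprr2a2*, *Sprr2a3*, *Sprr2h*, *Kprp*, *Lce3c*, *Lce3e*, *Lce3f*, and *Crct1*), against 0.523% of all genes. *Crct1* had the lowest adjusted p, 0.00538 in edgeR. T cells in keratinocyte medium had between 0 and 2 reads per library for each of these genes, and the size of the terms is therefore no bound. With such counts, reads in the co-cultured T-cell libraries push the term below 0, whichever cells they come from. The count of genes therefore describes and does not support a difference in response between both cell types. Without replicate 2 of the keratinocytes alone 3 genes passed the threshold.

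Genes that build the envelope without being part of the complex were read from a list of 17 members. In keratinocytes their sum went from 1975 to 636 RPKM on average upon co-culture, and 0 of 17 passed the edgeR test, with 7 lower at an unadjusted p under 0.05, against 4.12% of all genes. Between the T-cell fraction and co-cultured keratinocytes, the median log2 fold change of the 17 was -5.19. In the T-cell fraction, 11 of 17 were called lower, against 17.0% of all genes, and 1 was called higher, against 6.73% of all. The latter was *Klk7*, encoding a protease of corneocyte shedding, with 10.2 and 13.98 RPKM in co-cultured keratinocytes and 56.3 and 51.1 RPKM in co-cultured T cells (log2 fold change 2.21 ± 0.37, adjusted p = 0.00714 in edgeR). *Asprv1*, encoding a protease that processes profilaggrin, had 51.1 and 58.1 RPKM in the T-cell fraction, against 237 and 129.6 RPKM in co-cultured keratinocytes (adjusted p = 0.0734 in edgeR). *Cdsn*, encoding corneodesmosin, an adhesion protein of corneocytes, had 45.04 and 40.2 RPKM, against 119 and 47.9 RPKM (adjusted p = 0.294 in edgeR). Of 8 transcription factors of terminal differentiation, 6 were called lower in the T-cell fraction, against 17.0% of all genes, and 0 higher. *Hopx*, encoding a homeodomain protein of differentiating keratinocytes that activated T cells also express, had 329 and 139 RPKM in co-cultured keratinocytes and 48.1 and 63.1 RPKM in co-cultured T cells (log2 fold change -1.94 ± 0.55, adjusted p = 0.0340 in edgeR). It was between 28.01 and 55.2 RPKM in the 4 T-cell libraries without keratinocytes.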

How the data were processed

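RNA-seq data of murine keratinocytes and CD8+ T cells were used, with 2 libraries for each of 5 groups. Groups were taken from the sample labels. Replicate numbers come from the labels for both keratinocyte groups and the activated T cells, and follow accession order for the other T cells, which therefore cannot be paired. Per the labels, poly(A) libraries were prepared. Per the study's methods, the authors sequenced single-end reads of 59 bases, and mapped them to GRCm38 with default settings of the CLC Genomics Workbench. The NEBNext kit used is not stated to keep strand. How reads that map to several genes were assigned is not given in the sources used here. The authors deposited total and unique exon read counts per gene, without normalization, and RPKM values, and RPKM as deposited was used for levels and ratios of means.

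Total exon read counts of all genes were tested with the quasi-likelihood test of edgeR 4.0.16 (R 4.3.3) after filterByExpr and TMM scaling, with Benjamini-Hochberg adjustment and a threshold of 0.05. The 4 keratinocyte libraries, the 6 T-cell libraries, all 10 libraries (both co-cultured fractions), and 8 libraries (interaction) were fitted. The fit was tested on simulated data. As alternatives, the filter was dropped or raised to 10 reads in each library, TMM was replaced by library size, and unique reads, DESeq2 1.42.0, limma 3.58.1 (RPKM on the log2 scale with pseudocounts of 1 or 0.1), a replicate block, removal of the gene length trend, other sets of libraries, and leaving out each library were tried. Windows of 59 bases were compared over all GENCODE vM21 transcripts in both orientations, and coding identity is the share of matching bases over the longer of 2 globally aligned sequences (Biopython 1.88). Proteins were not analysed here.

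The genes and lists were chosen with earlier results of these data known. Genes named are those with a mean of at least 5 RPKM in any group or an adjusted p under 0.05 in any comparison, plus *Lor*, *Ivl*, and *Flg*, the 30 highest in keratinocytes alone first, and at most 3 genes per other list, the highest ones. *Cd8a*, *Cd4*, *Krt1*, *Krt10*, *Hrnr*, *Sprr2f*, and further members named beside a call were added after their values were seen.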

Additional observations from a re-analysis of the deposited data

Results flagged for a closer look

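The interaction term of edgeR over 8 libraries passed the threshold in 11 genes of the complex, against 0.523% of all genes, and in 3 to 16 genes with 1 library left out (effect in keratinocytes minus that in T cells, log2). The fitted difference was -10.54 for *Lor* (adjusted p = 0.0424), -9.64 for *Sprr2a2* (0.0341), -7.28 for *Sprr2a3* (0.0115), -11.34 for *Sprr2h* (0.0241), -12.56 for *Sprr1b* (0.0113), -14.87 for *Sprr1a* (0.0156), -13.60 for *Kprp* (0.0237), -15.98 for *Lce3c* (0.0113), -14.12 for *Lce3e* (0.0342), -17.72 for *Lce3f* (0.0113), and -16.05 for *Crct1* (0.00538), where the values in parentheses are adjusted p-values of edgeR. In each of these genes the co-cultured keratinocytes had a lower mean than keratinocytes alone, and the co-cultured T cells a higher mean than T cells in keratinocyte medium. T cells in keratinocyte medium had between 0 and 2 reads per library for these genes, so that their count describes and does not support a common direction. For genes without a read there the size of the fitted difference depends on the prior count and is no bound. The part that keratinocyte material in the T-cell fraction has in these differences was not tested. *Krt14* was at 61.6 and 16.8 RPKM in the co-cultured T cells and at 0.419 and 1.06 RPKM in T cells in keratinocyte medium.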

How the results depend on the processing

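With 2 libraries per group the tests see few degrees of freedom, and the levels of genes under 3 reads per library, as in T cells without keratinocytes, are limits. The replicate block called 0 genes of the complex between both keratinocyte groups, also with the length trend removed. Same-numbered libraries deviated together (Pearson r = 0.558 over 12515 genes, and 0.256 over the 33 genes of the complex tested). With 2 pairs the numbers were not taken as a pairing. Between both keratinocyte groups, DESeq2 called 8 genes lower, and leaving out 1 library gave 0 to 16, with 16 without replicate 1 of the co-cultured keratinocytes. No gene was called higher under any of these alternatives, and leaving out 1 library gave 0 to 0. For co-cultured T cells against those in keratinocyte medium, 22 genes were called higher without a filter, 25 and 28 by limma with pseudocounts of 1 and 0.1, and 4 to 10 with 1 library left out. Against activated T cells, 12 to 19 were called after leaving out 1 library (12 without replicate 1 of the activated T cells and 14 without replicate 2 of the co-cultured T cells). Between both co-cultured fractions, limma called 18 and 17 genes higher, and leaving out 1 library gave 2 to 10 higher and 5 to 9 lower. The interaction was called in 29 genes by DESeq2, 22 without a filter, 17 and 23 by limma, and 3 to 16 with 1 library left out (4 without either replicate of the T cells in keratinocyte medium, 6 without either replicate of the co-cultured T cells, and 6 and 3 without replicates 1 and 2 of the keratinocytes alone). Over all genes, several of these alternatives also called more than the edgeR test with its filter. For co-cultured T cells against those in keratinocyte medium this held without a filter and for limma, and between both co-cultured fractions for limma. In the interaction it held for DESeq2, without a filter, and for limma with a pseudocount of 0.1. There, limma with a pseudocount of 1 called fewer over all genes. Where more genes were called over all, a larger count in the complex was not read as stronger support. With at least 10 counts in every library, no gene of the complex was left for the comparisons with T cells. *Lce3c* and *Lce3f* stayed past the threshold between both co-cultured fractions in each of 12 alternatives, with log2 fold changes of 4.05 to 6.26 and 5.59 to 8.20.

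Some estimates that did not pass the test changed sign. In keratinocytes, *Sprr2j-ps* was at -0.193 and -0.204 by limma, -0.197 without the length trend, and -0.125 and -0.548 with the block, without and with removal of the trend, and between -0.996 and 0.650 with 1 library left out. *Lce1b* was at -0.00966 and -0.202 by limma, -0.422 without the trend, -0.0681 and -0.503 with the block, and between -1.528 and 1.04 with 1 library left out. *Sprr2k* was at -0.0798 without the trend and -0.0885 with the block in addition. With 1 library left out, *Sprr2a2* lay between -1.155 and 0.221 and *Sprr3* between -4.08 and 0.27. Between both co-cultured fractions, removal of the trend gave -0.75 for *Sprr1a*, -0.15 for *Crct1*, -0.87 for *Sprr2d*, and -0.0491 for *Sprr2i*, and library size gave -0.00077 for *Sprr1a*. With 1 library left out these were -0.76 to 2.18 for *Sprr1a*, -0.00081 to 1.02 for *Crct1*, and -1.48 to 10.62 for *Sprr2d*. The cause was not tested.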
